A study of Homo sapiens with 18 samples.

Results

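SKOV-3 cells, an established line from a human ovarian carcinoma, were transfected to express the luteinizing hormone receptor (LHR), and the LHR+ cells exposed to luteinizing hormone (LH) for 20 h (LH20) were compared with LHR+ cells that received no LH. The comparison used 6 of the 18 arrays, all 3 of each group, and both groups carried the same transfected receptor in the same line, so that by their labels they differed in LH, given at 50 ng/ml. The remaining 12 arrays were 3 each of cells without the receptor (LHR-) and of LHR+ cells with LH for 1, 4 or 8 h (LH1, LH4, LH8). The submitters describe the 3 replicates of each group as independent, and whether LHR+ is 1 clone is not given in the sources used here. No LHR+ group kept for 20 h without LH was analysed here, so the effect of LH and that of time in culture cannot be told apart in any result. The comparison asks which transcripts a late response to receptor activation includes.

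LHR is a G protein-coupled receptor of the ovary and testis. Its main partner is Gs, which activates adenylyl cyclase and raises cyclic AMP (cAMP). Protein kinase A then phosphorylates CREB and related factors, and transcription of early factors, phosphodiesterases and secreted proteins follows in steroid-producing cells. SKOV-3 cells lack the receptor before transfection, and ovarian surface epithelium, from which many ovarian carcinomas are thought to arise, meets high LH around ovulation.

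The measurements were probe set intensities of Affymetrix U133 Plus2 arrays on a linear scale. A gene was called up-regulated or down-regulated in a limma fit of log2(intensity + 1) over all 18 arrays when p was under 0.05, the Benjamini-Hochberg adjusted p over 54613 probe sets was under 0.1, the fold change of geometric means was at least 2 and all 3 arrays of one group lay above all 3 of the other. By these criteria 1990 probe sets were up-regulated (3.64%) and 1868 down-regulated (3.42%). Of 19752 genes, each taken as its brightest probe set, 726 were up-regulated (3.68% of the genes tested) and 736 were down-regulated (3.73%). Counts of called genes in the lists below are to be read against these shares. Without the fold threshold and the separation of arrays, an adjusted p under 0.1 was reached by 2724 genes that rose (13.8%) and 3128 that fell (15.8%), and the groups did not overlap in 4098 genes that were higher (20.7%) and 4403 that were lower (22.3%). The median log2 fold change over all genes was -0.004. Adding 1 to each intensity makes the change of a dim gene smaller than the ratio of its intensities, and 31.6% to 34.3% of the intensities of these 6 arrays were under 16. Genes of middle brightness were called more often than the rest, with 11.1% and 10.7% in the middle brightness classes against 4.13% in the dimmest and 3.65% in the brightest of 4 equal classes. Log intensities of arrays correlated at 0.962 to 0.964 within the groups and at 0.949 to 0.953 between them. Of the 6 arrays, 5 had their closest array in their own group, and LHR+ replicate 1 was closest to LH1 replicate 2, with 0.966 against 0.964 in its own group. An exact permutation test of 3 arrays against 3 cannot give a two-sided p below 0.1, so the p-values rest on limma's variance model.

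**Figure D1:**
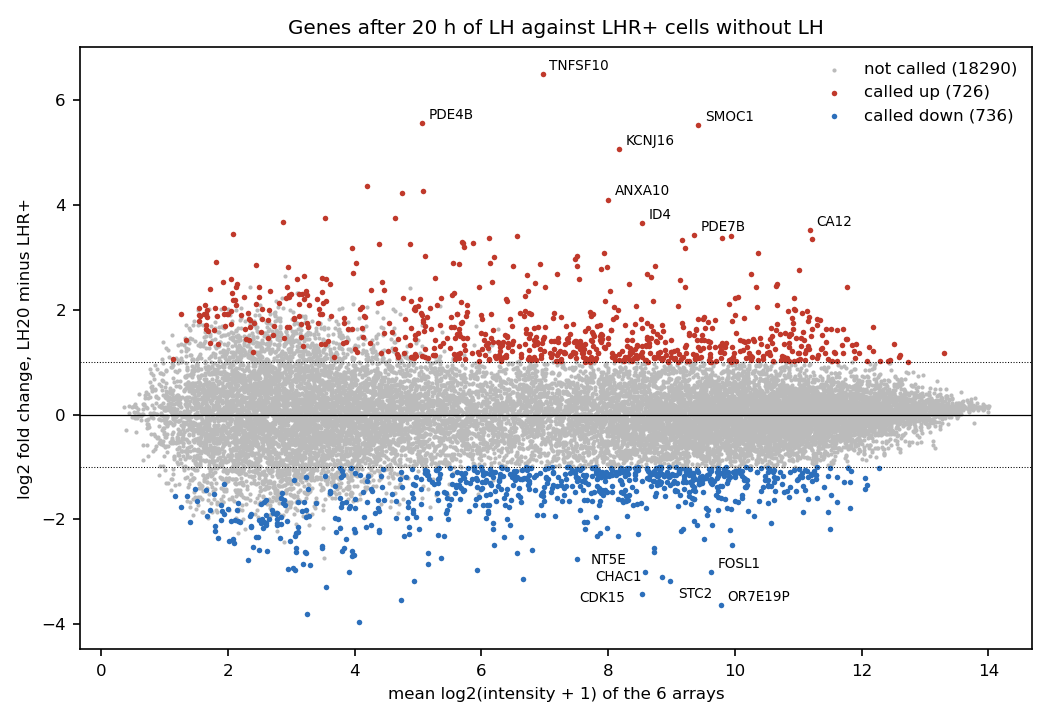
Each point is 1 of 19752 genes, with the mean log2(intensity + 1) of the 6 arrays on the x axis and the log2 fold change from LHR+ to LH20 on the y axis; red points are the 726 genes called up-regulated, blue points the 736 called down-regulated, and dotted lines mark the fold threshold of 2. TNFSF10 stands highest, with a log2 fold change of 6.48, and called genes lie on both sides over the whole range of brightness.

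The probe set for LHCGR, the gene of the transfected receptor, did not show the transgene. Its intensities were 1.57, 0.344 and 1.07 on the LHR+ arrays and 0.236, 0.467 and 0.196 on the LH20 arrays, and the mean in the LHR- group was 0.762. All lay at the floor of the array, so this probe set checks neither the labels nor the expression of the receptor. Carcinoma keratins, which are structural proteins of epithelial cells, were bright in both groups, with means in LHR+ and LH20 cells of 7252 and 7955 for KRT7, 4536 and 5910.4 for KRT8, and 3023 and 3622 for KRT18, and none of them was called. These keratins belong to a list of 16 ovarian carcinoma markers, of which 10 were brighter than the median gene. In that list 3 genes were up-regulated (MUC1, ERBB2 and FOLR1) and 1 was down-regulated (WT1). None of 9 leukocyte and endothelial markers or 9 markers of granulosa and theca cells was called or was brighter than the median gene.

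The largest rises included those of secreted, membrane and signaling proteins. TNFSF10 encodes TRAIL, a ligand that triggers apoptosis through death receptors. Its intensities were 20.4, 18 and 4.73 in LHR+ cells and 1076, 1200.4 and 1296 in LH20 cells, a rise of 89.5-fold with a log2 fold change of 6.48 ± 0.41 (SE, n = 3 arrays a group) and an adjusted p of 2.10e-07 by limma. The groups were far apart, and both other probe sets of the gene were called as well, with log2 fold changes of 6.47 and 6.01. The TNFSF10 mean was 82.5 in LHR- cells, 18.8 at 4 h and 35.1 at 8 h of LH, so nearly all of the rise came between 8 and 20 h.

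SMOC1, a calcium-binding protein of basement membranes, had intensities of 94.6, 98.9 and 109 without LH and 4339.8, 4729 and 4878 with it, a rise of 45.7-fold (log2 fold change 5.51 ± 0.12 SE, limma adjusted p 1.68e-11). KCNJ16, a subunit of inwardly rectifying potassium channels, went from 66.5, 44.6 and 40.1 to 1569, 1678 and 1759, or 33.2-fold. These were the highest fold changes among genes brighter than the median gene. ANXA10, an annexin, had intensities of 62.8, 59.97 and 60.5 in LHR+ cells and 1043, 1006 and 1142 in LH20 cells. CA12, a membrane carbonic anhydrase, rose from 800.4, 828 and 498 to 7363, 8618 and 7830.4, and all 7 of its probe sets were called with log2 fold changes of 3.28 to 3.90. AQP3, a channel for water and glycerol, rose from 283, 252 and 298 to 2652, 3139 and 2833, which is 10.3-fold.

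The other genes among the 15 largest rises in this range rose by 7.01-fold to 12.5-fold. They were ID3, ID4 and PDE7B, described with their pathways, the long noncoding RNA LINC02274 (mean ± SD 747 ± 70.00 to 7583 ± 320.4), CBLN2, a secreted synaptic protein (185 ± 42.2 to 1827 ± 81.6), KYNU, an enzyme of tryptophan breakdown (205 ± 68.8 to 1795 ± 149), NKAIN4, IGFN1, the adaptor SORBS2 and the histone gene H3C6. SORBS2 rose by 7.11-fold with its brightest probe set, while 4 of its 9 other probe sets were not called. In every one of these 15 genes the lowest LH20 array lay above the highest LHR+ array, which the call itself requires.

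**Figure D2:**
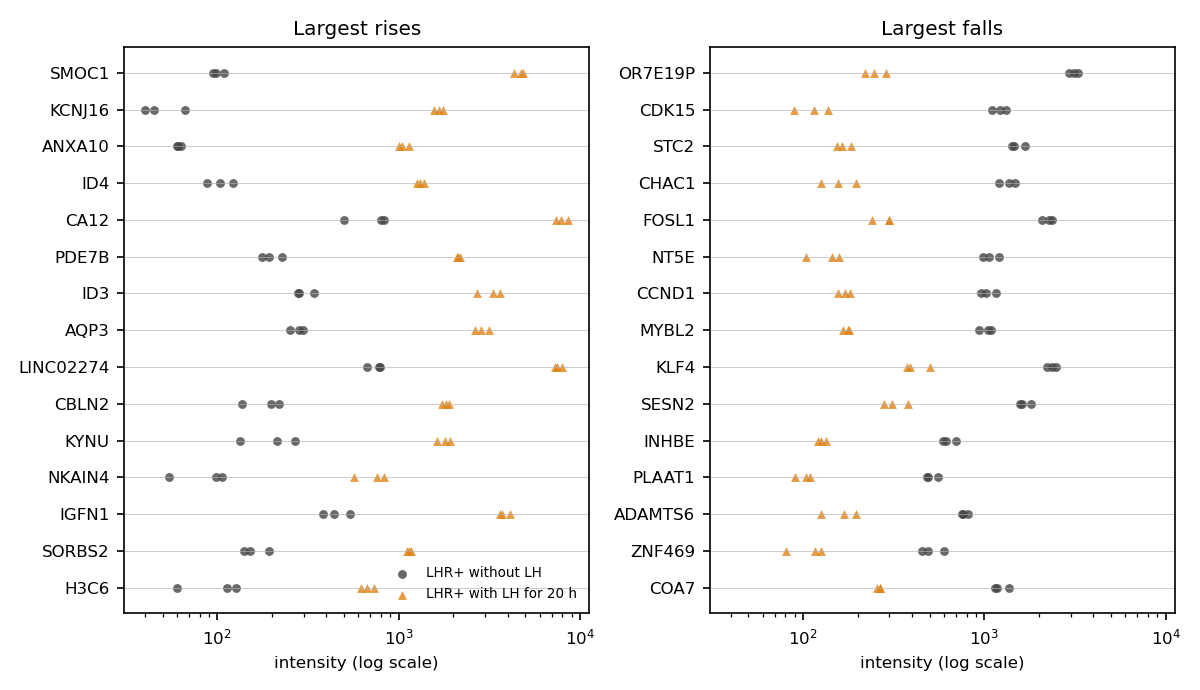
Intensities on a log axis of the 15 genes with the largest rise (left) and the 15 with the largest fall (right) among called genes brighter than the median gene; circles are the 3 LHR+ arrays without LH and triangles the 3 LH20 arrays. The groups are separated in each gene, and SMOC1 shows the widest gap, from 94.6 to 109 without LH to between 4339.8 and 4878 with LH.

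Genes that turn over or transmit cAMP moved in both directions. Of 17 cyclic nucleotide phosphodiesterases measured, 3 were up-regulated (17.6%) and 2 down-regulated (11.8%), against 3.68% and 3.73% of all genes. The median log2 fold change of the list was 0.08. PDE4B, which degrades cAMP, had intensities of 2.08, 15.3 and 1.31 in LHR+ cells and 244, 211 and 235 in LH20 cells, with a log2 fold change of 5.56 ± 0.61 and an adjusted p of 2.61e-05 by limma. Its LHR+ values were near the floor and spread widely, and its other probe sets, at log2 fold changes of 1.82 and 1.56, were not called. PDE7B, another cAMP-specific enzyme, rose from 229, 177 and 194 to 2195, 2108 and 2125, and both of its other probe sets were called too. PDE4D rose 2.57-fold, from 581 ± 67.7 to 1486 ± 27.6, below its mean of 4511 at 4 h, and 3 of its 5 other probe sets were not called. PDE1C, which is regulated by calcium and calmodulin, fell 2.61-fold from 1848 ± 77.9 to 708 ± 42.3, and PDE9A, specific for cyclic GMP, fell 2.27-fold, but each call is lost when the mean of the gene's probe sets is used.

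The core of the receptor pathway was not called. Among 17 genes of the LH receptor and Gs signaling, comprising G proteins, adenylyl cyclases, receptor kinases and an arrestin, log2 fold changes ran from -0.93 to 0.59 with a median of -0.09. No change reached the fold threshold, and 3 genes that rose and 3 that fell had an adjusted p under 0.1 by limma. Of all genes, 13.8% rose and 15.8% fell at that adjusted p. GNAS, the Gs alpha subunit, had means of 11822 ± 533 and 12732 ± 302. Of 16 protein kinase A subunits and anchors, 1 was up-regulated. This was AKAP12, an anchor protein that holds protein kinase A at the membrane, with intensities of 1166, 1145 and 1085 in LHR+ cells and 4282, 4684 and 4340.5 in LH20 cells, 3.92-fold (adjusted p 2.55e-07, limma). No catalytic or regulatory subunit of the kinase met all 4 criteria of a call. In this list 6 genes that rose, AKAP12 among them, and 2 that fell had an adjusted p under 0.1 by limma. These counts too are to be read against 13.8% and 15.8% of all genes.

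Of 21 transcription factors known to respond to cAMP, 4 were up-regulated (19.0%) and 2 down-regulated (9.52%), against 3.68% and 3.73% of all genes. The median log2 fold change of the list was 0.19. CEBPD, a C/EBP factor of acute responses, rose from 692, 769 and 589 to 3628, 4017 and 3874, 5.64-fold. NR4A2, an orphan nuclear receptor of the early response, had intensities of 43.5, 72.1 and 57.9 and 391, 352 and 369, with all 3 of its probe sets called. Its relatives NR4A3 and NR4A1 rose 3.52-fold and 2.24-fold, from means of 146 to 504 and from 32.8 to 75.2. The NR4A1 call is lost with 16 added to each intensity or with the mean of the gene's probe sets. In contrast, KLF4, a factor of epithelial differentiation, fell from 2488, 2223 and 2374 to 502, 375 and 388, 5.63-fold lower. EGR1, an immediate early factor, fell 2.74-fold from 1410.0 ± 38.8 to 515 ± 35.3, and 1 of its 3 probe sets, with a log2 fold change of 0.13, was not called. With the mean of its probe sets the EGR1 call is lost.

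Members of AP-1, the dimeric factor built from FOS and JUN proteins, went different ways. FOSB had intensities of 11.2, 14.9 and 2.74 without LH and 50.8, 56.2 and 46.5 at 20 h, a log2 fold change of 2.53 ± 0.47. That level was far under the FOSB mean of 479.7 at 1 h. FOSL1, which encodes FRA-1, fell from 2282, 2365 and 2086 to 298, 299.9 and 241, 8.04-fold lower with an adjusted p of 1.87e-09 by limma. The other 9 AP-1 genes measured were not called by their brightest probe sets, among them JUN (log2 fold change -0.97 ± 0.13), JUNB (0.87 ± 0.19), JUND (0.23 ± 0.09) and FOS (0.72 ± 0.57, with no array above 18.6). All 3 other probe sets of JUN were called down, with log2 fold changes of -1.32 to -1.16. RGS2, which limits G protein signaling, rose 3.48-fold from 443 ± 44.2 to 1544 ± 172 and was the only gene called up among 15 of the RGS family.

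**Figure D3:**
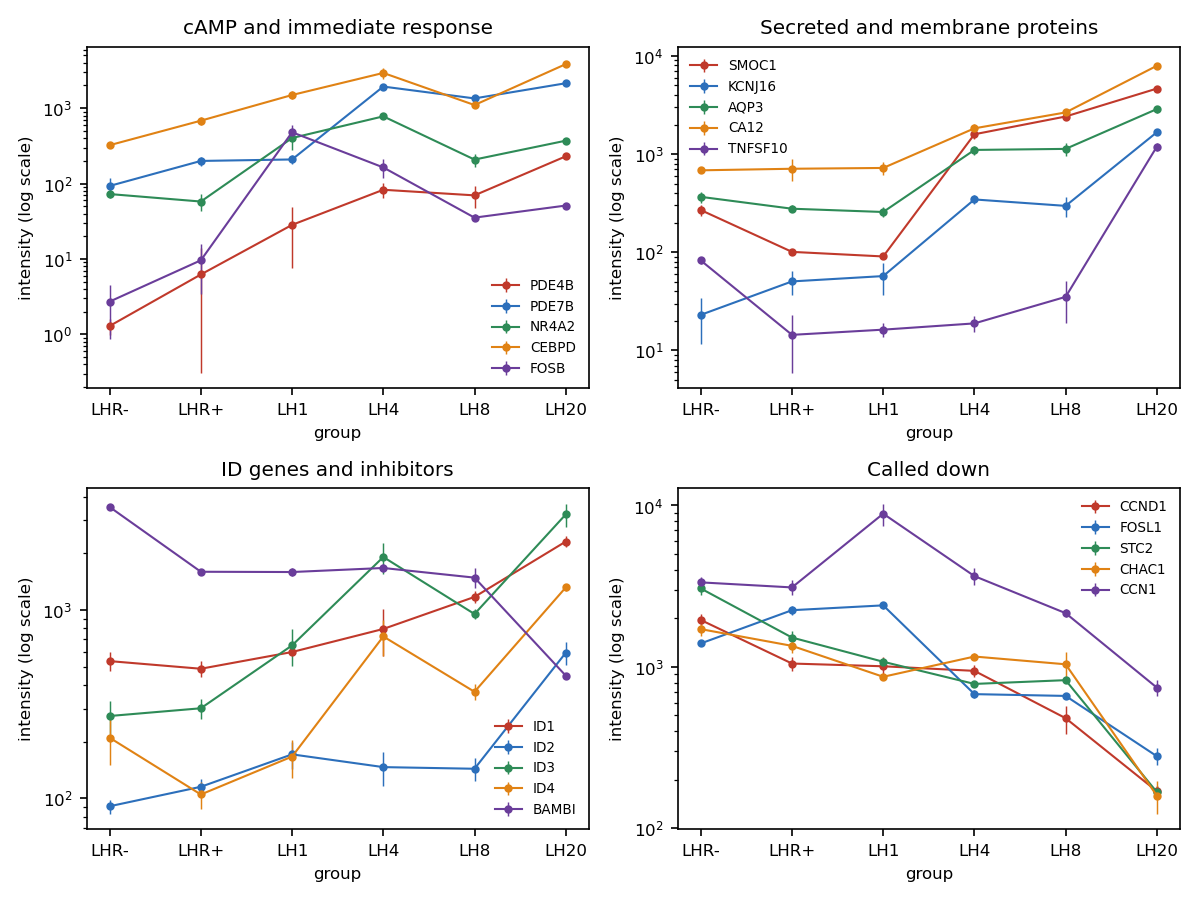
Mean intensity on a log axis in the 6 groups of 3 arrays for 20 genes in 4 panels; bars are 1 SD, and the lower bar of PDE4B in LHR+ cells is shortened because its SD exceeds its mean. SMOC1, PDE7B and AQP3 stand high from 4 h on, TNFSF10 and ID2 at 20 h, FOSB peaks at 1 h, and STC2, CHAC1, CCND1 and BAMBI are lowest at 20 h.

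The inhibitors of DNA binding, ID1 to ID4, rose together. They encode helix-loop-helix proteins without a DNA-binding region that hold back differentiation factors and are known targets of bone morphogenetic protein (BMP) signaling. ID4 had intensities of 123, 88.2 and 104 in LHR+ cells and 1313, 1258 and 1381 in LH20 cells, and ID3 of 344, 281 and 279 and 3624, 2716 and 3306. ID2 rose from 128, 109 and 109.6 to 610.1, 504 and 665 and ID1 from 539, 472 and 453 to 2403, 2133 and 2388. The 4 fold changes were 12.5, 10.6, 5.09 and 4.73, with adjusted p-values by limma of 1.66e-07, 1.24e-07, 1.02e-06 and 6.67e-07. ID3 and ID4 were above LHR+ cells at 4 h also, with means of 1912 and 724. At 8 h the means of ID3 and ID4 were 953 and 368, and the ID2 mean was 144.

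With these 4, the list of 41 genes of the TGF-beta, activin and BMP pathway held 5 up-regulated and 4 down-regulated genes and had a median log2 fold change of 0.24. The remaining rise was SMAD6, an inhibitor of BMP receptors (346 ± 40.2 to 801 ± 113). Down-regulated were GDF15, a stress-induced ligand (276 ± 64.4 to 50.6 ± 26.9), NOG, the BMP antagonist noggin (49.4 ± 8.24 to 14.8 ± 9.96), BAMBI, a decoy receptor (1548, 1633 and 1608 to 456, 447 and 443 by array), and INHBA, the activin beta A subunit (3164 ± 368 to 1346 ± 212). INHBE, another activin subunit gene known as a target of ATF4, fell 4.98-fold, from 589, 702 and 615 to 134, 120.3 and 126. The NOG call is lost in a fit of the 6 arrays alone.

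In each of 5 lists of matrix and adhesion genes, 16% to 27.8% of the members were up-regulated, against 3.68% of all genes, and in keratins, desmosomes and tight junctions 1 of 28 was up-regulated and 1 down-regulated. Of 26 collagens, 6 were up-regulated and 1 down-regulated, and the median log2 fold change was 0.57. COL1A2, a chain of fibrillar collagen, had intensities of 1096, 1160.1 and 1009 and 4001, 4314 and 4224, and COL4A4, a chain of basement membrane collagen, of 1397, 1412 and 1331 and 4388, 5138 and 5028. These were rises of 3.84-fold and 3.51-fold. COL6A1, COL5A2, COL7A1 and COL27A1 rose 2.00-fold to 2.27-fold, with 4 to 6 collagens called up when 1 array was left out. None of the 7 other COL6A1 probe sets was called, and COL6A3 fell 2.44-fold between low means of 84.6 and 34.2. In LHR- cells COL1A2 stood at 7148 ± 47.1, above its level in LH20 cells.

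Integrins, the receptors that bind cells to matrix, held 5 up-regulated genes and 1 down-regulated of 18. ITGB8, whose product binds latent TGF-beta, rose from 452, 538 and 459 to 3375, 2977 and 2877, 6.37-fold. ITGA1, a collagen receptor subunit, rose 3.55-fold from 194 ± 15.6 to 689 ± 39.2. ITGB3, a subunit of the vitronectin receptor, fell 3.92-fold from 135 ± 26.3 to 35.3 ± 16, but 5 of its 6 other probe sets were not called. Among 25 laminins and other matrix glycoproteins 4 were up-regulated and 2 down-regulated. After SMOC1 these were LUM, the proteoglycan lumican (21 ± 4.64 to 223 ± 6.43, against 5117 ± 472 in LHR- cells), NID2 (1033 ± 35.9 to 3044 ± 214) and HSPG2, which encodes perlecan (1014 ± 143 to 2228 ± 211), with LAMA2 and TNC down. The TNC call is lost without LHR+ replicate 1 or LH20 replicate 1.

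Of 23 metalloproteinases and inhibitors, 4 were up-regulated and 2 down-regulated. MMP13, a collagenase, rose 3.01-fold from 242 ± 35.5 to 727 ± 68.2, and MMP10, a stromelysin, 2.74-fold from 829.7 ± 219 to 2226 ± 199. MMP16, a membrane-bound enzyme, and ADAMTS9 rose 2.45-fold and 2.43-fold, but none of the other probe sets of these genes was called. ADAMTS6 and ADAMTS1, secreted proteases, fell 4.82-fold and 3.00-fold, ADAMTS1 from 4508, 4230.2 and 4391 to 1619, 1414 and 1356. The gelatinase gene MMP2 (log2 fold change 0.73 ± 0.22) and the collagenase gene MMP1 (0.90 ± 0.21) were not called. Among 18 cadherins and factors of epithelial-mesenchymal transition 4 were called, all up. CDH6, a cadherin of kidney and ovary tumors, rose from 1148, 1022 and 985 to 3642, 3346 and 3583, CDH16 2.61-fold, and SNAI1, a repressor of epithelial genes, from a mean of 46 to 117. The call of CDH1, which encodes E-cadherin, is lost without any 1 of the 6 arrays (log2 fold changes of 0.97 to 1.21), and the mean of its probe sets fell by 0.29 on the log2 scale. CLDN1, a tight junction claudin, fell 4.28-fold, from 1683, 1515 and 1766 to 452, 354 and 357.

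Of 20 genes of plasminogen activation, complement and coagulation, 4 were up-regulated and 1 down-regulated, with a median log2 fold change of 0.54. TFPI2, an inhibitor of serine proteases, rose from 827, 648 and 617 to 3734, 3616 and 3927, and CFB, complement factor B, from 72.4, 141 and 72 to 510.0, 745 and 626. CD55, which protects cells from complement, rose 3.07-fold, and PLAT, tissue plasminogen activator, 2.66-fold. THBD, which encodes thrombomodulin, fell 3.24-fold. The other CFB probe set was not called.

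Of 26 chemokines and genes of NF-kB feedback, 4 were up-regulated and none down-regulated. CXCL1, which attracts neutrophils, had intensities of 572, 539.6 and 548 without LH and 2809.9, 3157 and 2991 at 20 h, 5.38-fold. CXCL2 rose 2.25-fold with neither of its other probe sets called, and CXCL11 between means of 0.506 and 5.61, which are at the floor. The call of NFKBIA, an inhibitor of NF-kB, at a log2 fold change of 1.03, is lost without LH20 replicate 3, where the value is 1.00. CXCL8 (215, 152 and 226 to 374, 337 and 259) stayed under the fold threshold, and CXCL12 (log2 fold change 1.84 ± 1.07) and CCL20 (-0.76 ± 0.66) had overlapping groups, although the other CXCL12 probe set, also near the floor, was called up at 3.15. CCL2 had 21.7, 18 and 11.8 in LHR+ cells and 3.21, 1.55 and 8.30 in LH20 cells, which do not overlap, but its adjusted p by limma was 0.136. In the IL-1 and IL-6 families 4 genes of 22 were up-regulated and 5 down-regulated. IL6 itself rose from 41, 50.3 and 57 to 146, 112 and 132, a small part of its mean of 1668 at 1 h. IL1R1, the IL-1 receptor, rose 3.85-fold, SOCS3, an inhibitor of cytokine signaling, 2.71-fold, a call lost with the mean of its probe sets, while IL1RAP, the co-receptor chain of IL1R1, fell 2.36-fold. With 16 added to each intensity, 2 of the 5 falls in these families are left. Interferon-stimulated genes held 3 rises (8.11%) and 1 fall (2.70%) in 37, against 3.68% and 3.73% of all genes. The rises were IFITM1 (44.9 ± 11 to 327 ± 35.9), BST2 and IFIT1, and IRF1 fell 2.21-fold.

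Of 16 ERBB receptors and ligands 2 were up-regulated and 2 down-regulated, and of 40 other receptor tyrosine kinases and ligands 4 (10%) and 2 (5%), against 3.68% and 3.73% of all genes. ERBB4, a receptor of neuregulins, rose from 71.5, 39.5 and 24.2 to 238, 239 and 323, 6.31-fold, while its mean was 1877 ± 165 in LHR- cells. ERBB2, which encodes HER2 and is amplified in SKOV-3, rose 2.45-fold from 2732, 2797 and 2971 to 6796, 6928 and 7104. The ligand genes BTC and NRG4 fell 6.08-fold and 2.36-fold at low levels, where the BTC call is lost in a fit of the 6 arrays alone and the NRG4 call with 16 added to each intensity. KIT, the stem cell factor receptor, rose 3.06-fold (383 ± 31.5 to 1169.8 ± 36.7), PDGFRA 3.55-fold, the ephrin EFNA1 2.48-fold and the neurotrophin BDNF 2.53-fold (1112 ± 158 to 2799.6 ± 147, under its mean of 5239 at 4 h). PDGFB fell 2.53-fold, a call lost with the mean of its probe sets. Of 7 insulin-like growth factor binding proteins, IGFBP1 rose from 47.8, 46.5 and 47.8 to 193, 322 and 335 and IGFBP5 from 937, 892 and 912 to 2544, 2536 and 2403, and all 5 other IGFBP5 probe sets were called up.

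Of 18 genes of prostaglandin synthesis and reception 1 was up-regulated (5.56%), 2 were down-regulated (11.1%) and 15 were not called, against 3.68% up and 3.73% down of all genes. PTGES, which makes prostaglandin E2, rose from 66.3, 56.8 and 66.6 to 478, 576 and 500.1, 8.08-fold, with its other probe set not called. SLCO2A1, the prostaglandin transporter, had intensities of 56.4, 57.3 and 83.7 without LH and 0.613, 11.8 and 2.73 with it, at a log2 fold change of -3.95 ± 0.56, the lowest of all genes, on LH20 values at the floor. VAV3, a guanine nucleotide exchange factor, rose from 271, 228 and 196 to 1356, 1462 and 1279.9. CDC42EP3, an effector of CDC42, fell 4.53-fold, from 6002, 6359.7 and 6145 to 1520.4, 1369.6 and 1211, and all 4 of its probe sets were called. Of 22 steroidogenic genes, 2 were up-regulated, STARD3, a cholesterol carrier of late endosomes (2.68-fold), and HSD17B11 (2.60-fold). Ovarian carcinoma markers rose in 3 of 16 cases, MUC1 (1109 ± 92.5 to 3228 ± 225), FOLR1 (1377 ± 48.5 to 3091 ± 157) and ERBB2, and WT1 fell 3.10-fold, with 1 other FOLR1 and 1 other WT1 probe set not called.

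Genes of cell division, ribosome assembly and amino acid supply were among the falls. In the list of 42 genes of G2/M and mitosis 21 were down-regulated and none up-regulated, 50% against 3.73% of all genes, and the median log2 fold change was -1.04 against -0.004. MKI67, the proliferation marker Ki-67, had intensities of 2172, 2178 and 1864 in LHR+ cells and 489, 455 and 412 in LH20 cells, 4.57-fold lower with an adjusted p of 1.46e-07 by limma. BUB1, a kinase of the spindle checkpoint, fell from 567, 509 and 584 to 172, 189.6 and 165, and CENPA, the centromeric histone, from 502, 636 and 473 to 176, 157 and 211. SPC25, a subunit of the NDC80 kinetochore complex, fell from 513, 509.8 and 617 to 172, 213 and 182. The groups were well apart in all 4 genes. A smaller share of dividing cells and less RNA per cell cannot be told apart in these arrays.

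Falls of 2.12-fold to 2.81-fold were found for PLK1 and AURKB, mitotic kinases, CENPE, a kinetochore motor, FOXM1, a factor that drives mitotic genes, and CDC20, an activator of the anaphase-promoting complex. Among members that were not called, CCNB1, cyclin B1, had means of 6833 and 4042 (log2 fold change -0.76 ± 0.10), CDK1 had -0.45 ± 0.11 and TOP2A -0.11 ± 0.08, none of which reached the fold threshold with its brightest probe set. Kinesins, the motors of microtubules, showed 6 falls in 28 (21.4%, against 3.73% of all genes). Among them were KIF23 (905 ± 120.3 to 326 ± 10.02), KIF20A (1430.5 ± 37.8 to 558 ± 34.9) and KIF15. The other falls were KIF2C, KIFC1 and KIF5C. The KIF5C call, between low means of 52.9 and 23.5, is lost with 16 added to each intensity or with the mean of its probe sets. KIF23, KIF20A and KIF2C are also counted in the G2/M list. KIF11 stayed under the fold threshold at -0.67 ± 0.09. By contrast, 1 of 43 genes of DNA replication and G1/S was called, ORC6 at -1.03 ± 0.14, with a median over the list of -0.12, and that call is lost without LHR+ replicate 1 (-0.96) or LH20 replicate 3 (-0.92). The G2/M list had 23 genes called down at 4 h, 3 at 8 h and 21 at 20 h, each against the same LHR+ arrays.

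**Figure D4:**
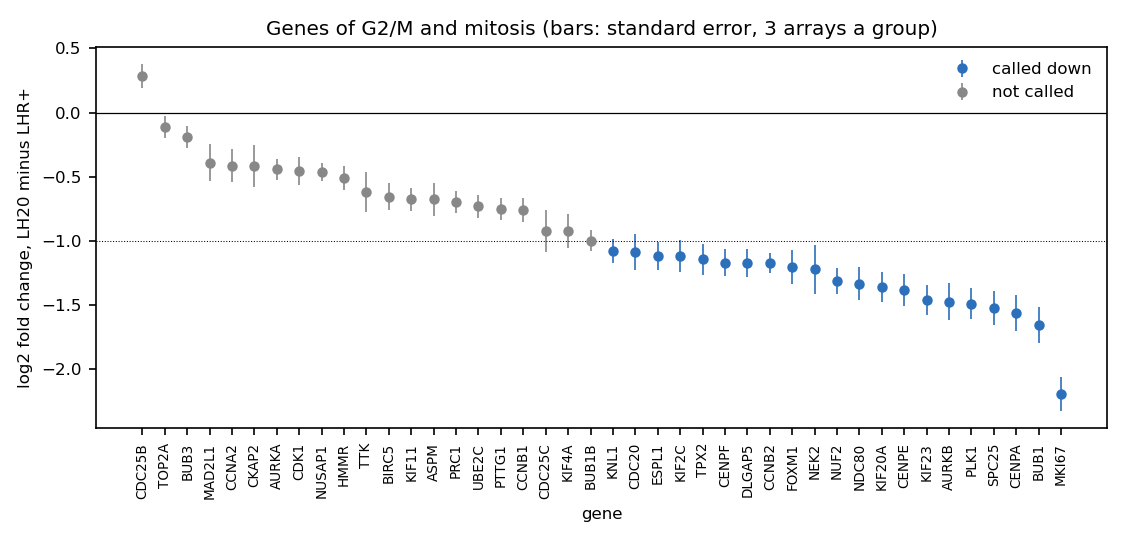
Log2 fold change from LHR+ to LH20 of the 42 measured genes of G2/M and mitosis in descending order; bars are the standard error of the limma fit with 3 arrays a group, blue points the 21 genes called down and grey points those not called, and the dotted line marks a 2-fold fall. All genes but CDC25B lie below 0, from TOP2A at -0.11 to MKI67 at -2.19.

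The upstream sequences of the 4 mitotic genes with the largest falls are shown because promoters of such genes often carry a cell cycle homology region (CHR, searched as TTTGAA) and CCAAT boxes (searched as CCAAT), both sought on either strand. They are the 250 bases before the RefSeq start, 5′ to 3′ on the gene's strand, in assembly GRCh38.p14, with matches in capitals.
MKI67 (chr10:128126424-128126673, minus strand): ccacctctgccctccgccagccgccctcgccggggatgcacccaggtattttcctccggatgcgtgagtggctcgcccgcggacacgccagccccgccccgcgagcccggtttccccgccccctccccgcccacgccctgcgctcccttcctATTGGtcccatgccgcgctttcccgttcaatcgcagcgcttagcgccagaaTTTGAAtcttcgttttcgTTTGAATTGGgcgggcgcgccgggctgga
BUB1 (chr2:110678064-110678313, minus strand): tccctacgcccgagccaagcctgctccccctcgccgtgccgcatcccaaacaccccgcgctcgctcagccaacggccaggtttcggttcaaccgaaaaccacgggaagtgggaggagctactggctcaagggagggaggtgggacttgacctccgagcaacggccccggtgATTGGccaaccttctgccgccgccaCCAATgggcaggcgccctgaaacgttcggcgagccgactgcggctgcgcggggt
CENPA (chr2:26785806-26786055, plus strand): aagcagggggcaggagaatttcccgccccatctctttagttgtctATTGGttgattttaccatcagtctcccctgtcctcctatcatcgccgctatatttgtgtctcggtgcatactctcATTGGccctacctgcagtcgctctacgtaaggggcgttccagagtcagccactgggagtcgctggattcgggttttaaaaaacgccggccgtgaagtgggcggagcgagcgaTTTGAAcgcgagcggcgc
SPC25 (chr2:168890431-168890680, minus strand): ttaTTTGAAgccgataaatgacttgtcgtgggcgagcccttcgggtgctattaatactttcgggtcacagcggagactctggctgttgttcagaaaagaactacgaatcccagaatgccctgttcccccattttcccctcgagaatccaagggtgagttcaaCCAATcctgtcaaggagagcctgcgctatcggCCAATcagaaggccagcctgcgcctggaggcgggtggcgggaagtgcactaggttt
MKI67 held 2 CHR matches and 2 CCAAT boxes, one pair of which overlaps by 1 base, CENPA and SPC25 held 1 CHR and 2 CCAAT boxes each, and BUB1 held 2 CCAAT boxes and no CHR. Over windows of 300 bases that reach 50 bases past the start, which RefSeq gives for 15390 of the genes, CHR letters stood in 12 of the 18 called genes of the list that had a window (66.7%) and in 22 of its 34 measured genes with one (64.7%), against 11.9% of all windows. CCAAT boxes stood in 77.8% of those called and 76.5% of those measured, against 36.1% of all. The cAMP response element TGACGTCA stood in 2.99% of windows of up-regulated genes and 3.15% of those of down-regulated genes, against 2.66% of all. A match describes letters and not binding.

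Of 16 cyclins D and CDK inhibitors, regulators of the G1 phase, 1 was up-regulated, 2 were down-regulated and 13 were not called. CCND1, cyclin D1, fell from 1164, 1022 and 959 to 171, 156 and 182, 6.14-fold lower, with its other probe set at a log2 fold change of -0.96 and not called. CDKN1C, the cyclin-dependent kinase inhibitor p57, rose from 801, 852 and 744 to 5326, 5463 and 5378, 6.75-fold, and was already at 4189.8 ± 118 at 4 h. CDKN3, a phosphatase of CDKs, fell 3.20-fold. MYBL2, a transcription factor of cell cycle genes, fell from 1084, 937 and 1048 to 178, 166 and 180.2. Of 21 targets of p53, 3 were down-regulated (14.3%, against 3.73% of all genes) and none up-regulated. The falls were TIGAR (170.3 ± 11.6 to 24.9 ± 15.1), SESN2, a target shared with ATF4, and GADD45A (6768, 6448 and 6865 to 2190.1, 1855 and 1776 by array).

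Ribosome biogenesis, the making of ribosomal subunits in the nucleolus, had 8 down-regulated genes of 27 and none up-regulated (29.6% against 3.73% of all genes), with a median log2 fold change of -0.69. RRS1, an assembly factor of the large subunit, fell from 1075, 1171 and 1185 to 384, 374 and 365, 3.05-fold lower (adjusted p 5.07e-08, limma), and NIP7 from 1876, 1279.7 and 1684 to 527, 474 and 578. UTP15, a factor of the small subunit, and DDX21, a nucleolar helicase, fell 2.39-fold and 2.36-fold, and RRP12 fell 2.39-fold with none of its other probe sets called. MYC, which drives many of these genes, had a log2 fold change of -0.75 ± 0.14 and was under the threshold, from 775 ± 21.1 to 460.4 ± 38.3. At 4 h the NIP7 mean had been 2557 and that of DDX21 5424, above LHR+ cells. Of 24 genes of purine and pyrimidine synthesis, CTPS1, which makes CTP, fell from 1839.5, 2013 and 1921 to 719.9, 622 and 584, and GART, a purine enzyme, 4.30-fold with its brightest probe set. Other GART probe sets gave log2 fold changes of -1.13 to -0.28, and with their mean the call is lost. None of 21 ribosomal protein genes was called, and their log2 fold changes ran from -0.08 to 0.24.

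ATF4 is a factor that answers amino acid shortage and other stress. A mixed list of amino acid synthesis genes and ATF4 targets, named the ATF4 list here, held 27 measured genes. Of these, 8 were down-regulated (29.6%, against 3.73% of all genes) and 1 was up-regulated (3.70%, against 3.68%). The median log2 fold change of the list was -0.49. STC2, the secreted glycoprotein stanniocalcin 2, had intensities of 1419, 1687 and 1451 without LH and 164, 184 and 154 with it, 9.02-fold lower (log2 fold change -3.17 ± 0.10 SE, adjusted p 1.45e-09, limma). CHAC1, which degrades glutathione, fell from 1365, 1474 and 1209.6 to 197, 125 and 156, and SESN2, a sensor of leucine, from 1584, 1807 and 1622 to 380.3, 309 and 278. TRIB3, a pseudokinase, fell 2.90-fold from 4975 ± 74.5 to 1731 ± 289.8. Enzymes of the list fell less, PCK2 by 2.44-fold and the asparagine synthetase gene ASNS by 2.02-fold. The rise was CTH, an enzyme of cysteine synthesis (2.05-fold), which is not called without LH20 replicate 2 (log2 fold change 0.95). ATF4 transcript itself gave -0.08 ± 0.16, with 9084, 9375 and 12170.0 in LHR+ cells and 9506, 8375 and 11051 in LH20 cells, so its groups overlapped. Of 17 aminoacyl-tRNA synthetases, which charge tRNAs, 3 fell, among them LARS1 (2.29-fold) and FARSB (2.22-fold), and another, VARS1, is not called without LHR+ replicate 2 (-0.91) or LH20 replicate 3 (-0.87).

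The CHAC1 promoter is shown because it holds the letters of a C/EBP-ATF response element (CARE, searched as TGATGNAA on both strands), through which ATF4 is known to act. It is the 250 bases before the RefSeq start in GRCh38.p14, and the match, on the opposite strand, is in capitals.
CHAC1 (chr15:40953221-40953470, plus strand): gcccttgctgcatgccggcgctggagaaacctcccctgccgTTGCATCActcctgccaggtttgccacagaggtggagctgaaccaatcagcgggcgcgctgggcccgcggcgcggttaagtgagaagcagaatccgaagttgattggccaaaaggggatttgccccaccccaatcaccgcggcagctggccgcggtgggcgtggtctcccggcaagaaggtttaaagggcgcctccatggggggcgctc
CARE letters stood in 2 of 8 windows of called genes of the ATF4 list and in 5 of 24 of those measured (20.8%), against 2.63% of all windows.

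Feedback genes of the MAP kinase pathway fell more often than they rose. Of 18 measured, 5 fell (27.8%, against 3.73% of all genes) and 1 rose (5.56%, against 3.68%), with a median log2 fold change of -0.39. PHLDA1 fell 2.79-fold from 2963 ± 442 to 1061 ± 153, and 4 of its 5 other probe sets were called down. DUSP4, DUSP6 and DUSP7, phosphatases of MAP kinases, fell 2.16-fold, 2.34-fold and 2.41-fold, but with the mean of a gene's probe sets DUSP6 and DUSP7 are no longer called and 3 falls are left in the list. The rise of DUSP1 (log2 fold change 1.06 ± 0.15) is lost without LHR+ replicate 3, at 0.98. Targets of the coactivator YAP, which senses cell tension and density, held 3 falls in 17 (17.6%, against 3.73% of all genes). ANKRD1 fell from 289, 373 and 243 to 17, 41.5 and 49.6, NT5E, the ectoenzyme CD73 that makes adenosine, from 1209, 1058 and 982 to 145, 158 and 104, and CCN1, a matricellular protein, from 3280.4, 2719 and 3318 to 819.6, 759 and 653. All 4 probe sets of NT5E were called.

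Other genes among the 15 largest falls were OR7E19P, an olfactory receptor pseudogene (2919.9, 3106 and 3289.5 to 289, 219.5 and 247), CDK15 (1103, 1319.7 and 1223 to 115, 138 and 89.2), PLAAT1, a phospholipid-modifying enzyme (507 ± 39.7 to 101 ± 9.47), ZNF469 (514 ± 75.8 to 107 ± 23.9) and COA7, a mitochondrial assembly factor (1229.8 ± 127 to 263 ± 6.82). OR7E19P belongs to a family of near-identical copies, so which copy its probe set measures is uncertain. Its mean was 214 in LHR- cells and 4477 at 8 h.

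Genes of cell death were called in both directions. Of 17 members of the BCL2 family 1 was up-regulated (5.88%) and 2 down-regulated (11.8%). Of 23 death receptors and caspases 1 (TNFSF10) was up-regulated (4.35%) and 2 down-regulated (8.70%), against 3.68% and 3.73% of all genes. In the BCL2 family, BCL2L11, which encodes the death-promoting protein BIM, rose from 244, 276 and 246 to 897, 819 and 775, 3.25-fold, and BAK1, a pore-forming member, fell 2.88-fold from 959 ± 102 to 333 ± 36.7. BCL2 fell 2.32-fold with its brightest probe set alone, and 5 of the 6 other probe sets of BCL2L11 were not called. TNFRSF12A, the receptor of TWEAK, fell 2.76-fold. CFLAR, an inhibitor of caspase 8, fell 2.14-fold with 1 of its 13 other probe sets called as well, and is not called without LH20 replicate 3. The death genes FAS, CASP1, BMF and TRAF3 were not called by their brightest probe sets, at log2 fold changes of -0.34 ± 0.25, 1.30 ± 0.95, 0.45 ± 0.15 and -0.15 ± 0.12. One other probe set was called in each of FAS (-1.61), CASP1 (2.92) and TRAF3 (-1.01).

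Metabolic lists are set against 3.68% up-regulated and 3.73% down-regulated of all genes. The up-regulated share was 14.3% in glycolysis and the hypoxia response and 11.1% in cholesterol synthesis and uptake. It was 8.70% in lysosomal genes, 11.1% in NRF2 targets and AKR enzymes and 0% in fatty acid synthesis. The down-regulated share was 11.1% in NRF2 targets and AKR enzymes, 6.67% in fatty acid synthesis and 0% in the others. Of 28 genes of glycolysis and the hypoxia response, 4 were up-regulated and none down-regulated (median log2 fold change 0.29). After CA12 these were ANKRD37 (1223 ± 143 to 4395 ± 110.5), PFKFB4, a regulator of glycolysis (891 ± 46.7 to 2961 ± 196), and EGLN3, an oxygen sensor (152 ± 15.3 to 344 ± 48.5), with 1 other probe set of ANKRD37 and 1 of PFKFB4 not called. In cholesterol synthesis and uptake, INSIG1, which holds back SREBP, rose 2.89-fold, and the median log2 fold change was 0.41. By the adjusted p under 0.1 alone, 12 of its 18 genes were higher, against 13.8% of all genes. The other call, HSD17B7, is lost without LHR+ replicate 3 (log2 fold change 0.85). ELOVL6, a fatty acid elongase, fell 2.76-fold. Lysosomal genes had a median of 0.34, with CTSK and NPC1 up-regulated of 23, and the NPC1 call is lost with the mean of its probe sets. In 27 targets of NRF2 and AKR enzymes 3 glutathione transferases rose (GSTM2, GSTM1 and GSTA4) and AKR1B10 (3.28-fold), OSGIN1 and SRXN1 fell. The probe sets of GSTM1 and GSTM2 may share transcripts. The OSGIN1 call is lost with 16 added to each intensity.

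Of the 56 lists, 25 held more up-regulated than down-regulated genes, 20 the reverse and 6 no called gene. The lists without a call were the LH receptor and Gs signaling, the TCA cycle and oxidative phosphorylation (23 genes, log2 fold changes from -0.29 to 0.26), the proteasome (23), ribosomal proteins and both lists of other cell types. No list was tested as a set, and the lists were chosen with earlier results of these data known.

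**Figure D5:**
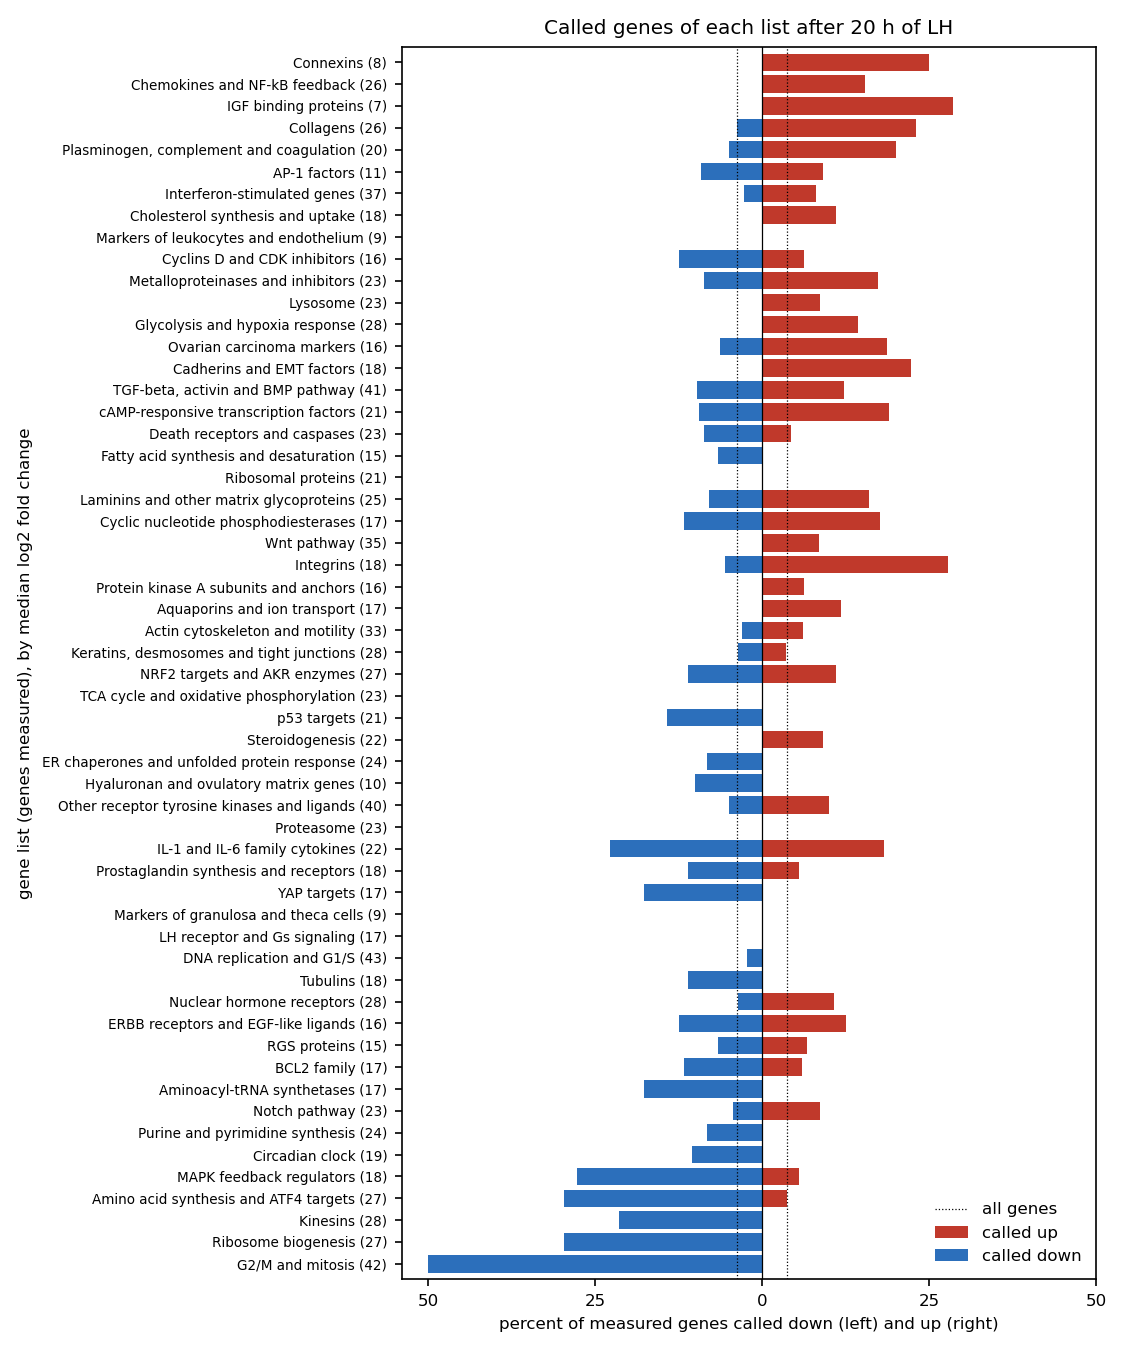
Share of measured genes called up-regulated (red, right of 0) and down-regulated (blue, left of 0) in each of 56 gene lists on the y axis, ordered by median log2 fold change, with the number of genes measured in parentheses; dotted lines mark 3.68% up and 3.73% down among all genes. G2/M and mitosis reaches furthest left at 50% down, and IGF binding proteins furthest right at 28.6% of 7 genes.

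Set beside the earlier LH times, 20 h held the most calls. Against the same LHR+ arrays, 57 genes (0.289%) were up-regulated and 6 (0.0304%) down-regulated at 1 h, 232 (1.17%) and 158 (0.8%) at 4 h, and 166 (0.84%) and 116 (0.587%) at 8 h, and the 4 comparisons share these arrays. From LH8 to LH20 directly, 432 genes were up-regulated (2.19%) and 415 down-regulated (2.1%). TNFSF10 rose by a further 5.13 log2 units between 8 and 20 h (adjusted p 5.57e-06, limma). List medians at 8 and 20 h were -0.06 and -0.69 for ribosome biogenesis, -0.09 and -0.49 for the ATF4 list, -0.63 and -1.04 for G2/M and mitosis, 0.30 and 0.57 for collagens, and -0.04 and 0.43 for interferon-stimulated genes. Of ribosome biogenesis genes none was called at 4 or 8 h, and of the ATF4 list 1 was called up at 4 h.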

How the data were processed

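The deposited values were the authors' processed intensities of 18 Affymetrix U133 Plus2 arrays, hybridized with RNA amplified by the NuGEN Ovation V2 system, 3 for each of 6 groups taken from the labels. They are on a linear scale. The labels name PLIER and the study's methods RMA, and which of them and what scaling made the values could not be settled, so an effect of the summary method on dim probe sets cannot be judged. Medians of the 6 arrays compared were 47.8 to 54.6. Arrays carry no read depth, and their number limits the precision.

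From these, log2(intensity + 1) of 54613 probe sets (54675 less 62 controls) was fitted with limma 3.58.1 in R 4.3.3 (lmFit, eBayes, 1 mean for each group of 18 arrays, no covariates), with 12 residual and 1.37 prior degrees of freedom. The 4 criteria of a call follow the study's thresholds. Of the probe sets, 41091 listed 1 gene symbol, 1801 several and 11721 none, and symbols were updated through RefSeq. A gene was its probe set with the highest mean log2 intensity over 18 arrays. The set of named genes held the 15 largest rises and falls among called genes brighter than the median gene. It also held up to 4 called members in each direction of 56 lists and the genes the study names for 20 h of LH. Not all are described above. Of the study's genes left out, EDN1 and GJA1 were called up (log2 fold changes 1.10 and 1.01). TUBAL3, PPP1R15A and PLEKHF1 were called down (-1.19, -1.08 and -1.06), and GJA3, GJC1, TUBB2B and THBS1 were not called by their brightest probe sets. The EDN1 and PLEKHF1 calls are lost without LH20 replicate 1, and those of GJA1 and PPP1R15A without LH20 replicate 3. Further list members were named after their values were seen. The members and lists were chosen with earlier results of these data known. Scripts were tested on simulated data. No 2 arrays held identical values. Same-numbered replicates did not deviate together (r 0.039, 0.0319 and -0.0013), so they were not paired. Alternatives covered the pseudocount, dim probe sets, samples in the fit, scaling, the test, the fold threshold, the variance model, single arrays and the probe set of a gene.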

Additional observations from a re-analysis of the deposited data

Results flagged for a closer look

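In 5 genes brighter than the median gene, LH at an earlier time and at 20 h was called in opposite directions against the same LHR+ arrays. They were chosen for these opposite calls, so that a difference of at least 2 log2 units between the times follows from the choice, and the differences are given as a description with no test. CCN1 stood 3.57 log2 units lower at 20 h than at 1 h (log2 fold change -3.57), with 1.51 at 1 h and -2.06 at 20 h against LHR+ cells. EGR1 differed by -4.21 between 20 h and 1 h, from 2.75 at 1 h to -1.45 at 20 h. VAV3 differed by 3.89 between 20 h and 4 h, from -1.33 at 4 h to 2.56 at 20 h. ZFHX4, a zinc finger and homeobox factor, differed by 2.41 between 20 h and 4 h, from -1.11 to 1.30. ZNF540 differed by -2.53 between 20 h and 4 h, from 1.05 to -1.48. The EGR1 call at 20 h is lost with the mean of its probe sets.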

How the results depend on the processing

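The counts of called probe sets depended on the fold threshold and on dim probe sets. Against 1990 probe sets up-regulated and 1868 down-regulated, 16 added to each intensity gave 1272 and 1133, probe sets brighter than the median alone 1238 and 1153, a fold of at least 1.5 3914 and 4235, and no fold threshold 5897 and 6652. For genes, a fold of at least 1.5 gave 1535 up and 1726 down and no fold threshold 2651 and 3055. Without any 1 of the 6 arrays 1887 to 2095 probe sets were up-regulated and 1795 to 2189 down-regulated, and 674 to 766 genes were up-regulated and 730 to 807 down-regulated. The replicate number as a block gave 1980 and 1870 probe sets, and no named call was lost under this pairing. With the mean of a gene's probe sets, the sign turned for CDH1 (-0.29), SCNN1A (-0.074) and BHLHE41 (0.21), and 38 of 193 called named genes lost their call. Of these 193, 132 kept it in every setting but the fold thresholds. The probe set chosen and dim signals therefore limit single genes, and the causes of these changes were not tested. An adjustment over genes only, chosen after seeing the data, moved 4 of 112 list counts.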

Other observations

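Metallothioneins, small proteins that bind zinc and copper, were not among the lists and were chosen after their values were seen. Of 7 measured, 5 were down-regulated and none up-regulated, against 3.73% of all genes called down, with a median log2 fold change of -1.15. MT1X had intensities of 6532, 6452 and 6439 in LHR+ cells and 2708, 2780.0 and 2938 in LH20 cells, 2.31-fold lower, and MT1E and MT1F fell by 2.22-fold and 3.83-fold. MT2A, at a log2 fold change of -0.58 ± 0.12, was not called. These genes are near-identical, so their probe sets may share transcripts.

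Other families were also read after their values were seen. Of 5 glutathione transferases of the mu class 3 were up-regulated, against 3.68% of all genes, with a median of 1.18. GSTM1 and GSTM2 gave log2 fold changes of 1.18 and 1.19, and their probe sets may share transcripts, which was not tested. Among 45 histone genes 4 were up-regulated and 6 down-regulated, and of 425 ZNF genes 6 and 21, against 3.68% and 3.73% of all genes. None of 72 mitochondrial ribosomal proteins, 10 exosome components or 18 subunits of RNA polymerase I and III was called, with medians of -0.17, -0.35 and -0.30.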
